A study of Mus musculus with 4 samples.

Results

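The mitochondria-raised cells described here were 335 droplet barcodes of 1 library, out of 2916 barcodes of that library and 7495 barcodes of the whole series with at least 500 unique molecular identifiers (UMIs, one per captured RNA molecule) and 250 genes. They were chosen from measured values. Between 10% and 20% of their UMIs came from the mitochondrial genes (gene names that start with mt-), Col1a1 and Col3a1 together stayed under 20 per 10000 UMIs, and no UMI of Ptprc, the leukocyte antigen CD45, was present. Of 356 barcodes in that mitochondrial range, 21 were left out by the collagen limit and 0 by Ptprc alone. They made up 11.5% of the barcodes of the library, with an exact 95% interval of 10.4% to 12.7%. They were set against the 1250 cells of the same library that met the same limits with under 10% mitochondrial UMIs, and a further 1194 barcodes lay over 20%. Since the mitochondrial share chose the cells and both groups come from 1 library, differences between them are given as a description, with no test. Intervals are exact and cover counting error only.

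The library comes from a comparison of ways to prepare pancreatic tumours of mice so that fibroblasts of the tumour can be read by droplet RNA sequencing. KPC-4545 is one of 2 lines from KPC tumours, a mouse model of pancreatic ductal adenocarcinoma; it was implanted into the pancreas of C57BL/6J mice, which received no treatment, and tumours were taken and dissociated on day 13. The enriched KPC-4545 library holds cells that a sort passed because they lacked TER119, EPCAM, CD31 and CD45, so a cell with EPCAM protein on its surface should have been removed before sequencing. The other 3 libraries are the unsorted (whole) suspension of KPC-4545, and the enriched and whole suspensions of KPC-3403, with the same host strain, day and lack of treatment. Each line and preparation has 1 library, and how many animals stand behind it is not given in the sources used here. The 4 libraries held 47207893 UMIs (enriched KPC-4545), 5746733 UMIs (whole KPC-4545), 51450719 UMIs (enriched KPC-3403) and 13990046 UMIs (whole KPC-3403).

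Neat1 is a long non-coding RNA that stays in the nucleus, where its long form builds paraspeckles, bodies in which proteins such as Sfpq, Nono and Pspc1 gather. Mitochondrial mRNAs lie inside the mitochondria, within their membranes, while most mRNAs of nuclear genes sit in the cytoplasm, where those for ribosomal proteins are among the most abundant. A raised mitochondrial share is widely used in single-cell work as a sign of a damaged or stressed cell, and it can also mark a cell type that is rich in mitochondria.

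The sequences of 4 of the 5 genes that mark these cells show what the counts stand for. The transcript of mt-Atp8, at chrM:7766-7969 on the plus strand of GRCm38, is a short mRNA for a subunit of the ATP synthase, and its last 43 bases, in capitals, overlap the start of mt-Atp6, so that a read in that stretch cannot be given to one gene with certainty.

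mt-Atp8: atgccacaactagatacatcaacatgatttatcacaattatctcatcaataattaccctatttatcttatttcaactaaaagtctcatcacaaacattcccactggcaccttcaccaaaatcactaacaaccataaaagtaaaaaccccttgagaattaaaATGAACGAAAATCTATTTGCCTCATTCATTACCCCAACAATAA

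Neat1, on the minus strand at chr19:5824708-5845478, has 4 annotated transcripts of 711 to 20771 bases. The first 120 bases of its longest transcript, chr19:5845359-5845478, are shown because the libraries were made with chemistry that reads the 5′ end of an RNA.

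Neat1, first bases: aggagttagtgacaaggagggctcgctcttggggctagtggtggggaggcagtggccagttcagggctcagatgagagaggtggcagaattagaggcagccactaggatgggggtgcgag

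Slc5a3, at chr16:92058322-92087473 on the plus strand, encodes the sodium-coupled transporter of the osmolyte myo-inositol, and Nfatc2, at chr2:168476410-168601657 on the minus strand, encodes a transcription factor that calcineurin brings into the nucleus. The 250 bases before their starts are shown because both genes were high in the mitochondria-raised cells, with GGAAA or its reverse complement TTTCC, the core of NFAT binding sites, in capitals.

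Slc5a3, chr16:92058072-92058321: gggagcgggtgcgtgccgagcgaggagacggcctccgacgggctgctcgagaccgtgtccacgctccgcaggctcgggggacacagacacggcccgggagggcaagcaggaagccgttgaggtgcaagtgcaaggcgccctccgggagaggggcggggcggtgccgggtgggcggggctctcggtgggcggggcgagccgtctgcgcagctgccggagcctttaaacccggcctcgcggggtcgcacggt
Nfatc2, chr2:168601658-168601907: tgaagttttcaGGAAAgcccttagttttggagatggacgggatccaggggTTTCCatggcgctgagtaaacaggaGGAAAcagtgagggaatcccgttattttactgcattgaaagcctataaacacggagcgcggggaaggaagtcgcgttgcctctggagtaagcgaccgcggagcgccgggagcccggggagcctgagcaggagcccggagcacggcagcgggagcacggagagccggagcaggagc
Nfatc2, second start, chr2:168590366-168590615: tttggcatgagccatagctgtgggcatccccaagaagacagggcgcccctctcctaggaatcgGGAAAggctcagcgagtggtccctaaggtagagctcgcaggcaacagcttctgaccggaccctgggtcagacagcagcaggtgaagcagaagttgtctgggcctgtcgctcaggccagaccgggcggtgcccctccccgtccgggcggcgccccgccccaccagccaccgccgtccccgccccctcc

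These promoter sequences are from RefSeq on GRCm38.p6, and the transcripts are from GENCODE M21 on GRCm38. GGAAA was found on either strand 0 times before Slc5a3, 3 times before the first Nfatc2 start and 1 time before the second, and 55.6% of 32851 promoters of the same length held it. GGGCGG, searched on both strands, was found 4 times before Slc5a3 and 4 times before the second Nfatc2 start, and was in 32.7% of promoters. Trps1, the fifth marker, encodes a zinc finger repressor of transcription and lies at chr15:50654752-50890463 on the minus strand.

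The mitochondria-raised cells held fewer RNA molecules than the cells under 10%, and more of them were mitochondrial. Their median was 5291 UMIs (quartiles 3590.5 to 7107, range 516 to 16398) in the mitochondria-raised cells, against 19457 UMIs (quartiles 985.75 to 39582.8) in the cells under 10%. The median number of UMIs from nuclear genes was 4471 in the mitochondria-raised cells and 18828.5 in the cells under 10%, while the median number of mitochondrial UMIs was 780 in the mitochondria-raised cells and 458 in the cells under 10%. The cells under 10% were a mixture in depth: 317 of them had under 1000 UMIs, and with at least 1000 UMIs and 500 genes the medians were 5345 UMIs in 327 mitochondria-raised cells and 28764 UMIs in 932 cells under 10%. Genes per cell followed the depth, with medians of 1957 in the mitochondria-raised cells and 4364 in the cells under 10%; after thinning each cell to 1000 UMIs, the medians were 580 genes in the mitochondria-raised cells and 612 in the cells under 10%, with 6 mitochondria-raised cells and 317 cells under 10% too shallow to be thinned. Thinned to 1000 nuclear-gene UMIs instead, so that mitochondrial UMIs take up no depth, the order was the opposite, with medians of 654.5 genes in the mitochondria-raised cells and 614 in the cells under 10%. Barcodes were shared with another library for 3 of 335 mitochondria-raised cells, all with the whole KPC-3403 library, and for 119 of the cells under 10% with that library, 12 with the enriched KPC-3403 library and 7 with the whole KPC-4545 library. Without the shared barcodes, 4179 genes were at least 2-fold higher and 2222 at least 2-fold lower, against 4195 and 2224 with them.

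Neat1 stood at a median of 138 UMIs per 10000 nuclear-gene UMIs (the level used below unless another is named) in the mitochondria-raised cells, with quartiles of 56.9 and 238 and a highest value of 694. In the cells under 10% its median was 2.25, with quartiles of 0.249 and 8.77 and a highest value of 684. The groups therefore overlapped in their extremes: 64 of 1250 cells under 10% reached the lower quartile of the mitochondria-raised cells, and 6 of 335 mitochondria-raised cells were at or under the median of the cells under 10%. Of the 64 cells, 51 lay at 5% to 10% mitochondrial UMIs, where 40.2% of 127 cells reached that level, and 13 lay under 5%, where 1.16% of 1123 cells did. Summed over cells, Neat1 was at 150 in the mitochondria-raised cells and 6.67 in the cells under 10%, a ratio of 22.5 (22.1 to 23.0). More Neat1 molecules were also counted per cell, without any scaling: 72.5 UMIs per mitochondria-raised cell and 14.9 UMIs per cell under 10%.

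The other markers were high in the same cells at much lower levels. The osmolyte transporter gene Slc5a3 was at 6.60 in the mitochondria-raised cells and 0.561 in the cells under 10%, a ratio of 11.8 (10.9 to 12.7). Trps1 was at 5.40 in the mitochondria-raised cells and 0.474 in the cells under 10%, a ratio of 11.4 (10.4 to 12.4). Nfatc2 was at 4.46 in the mitochondria-raised cells and 0.242 in the cells under 10%, a ratio of 18.4 (16.6 to 20.5). All 3 were also counted more often per cell, at 3.19, 2.61 and 2.16 UMIs per mitochondria-raised cell for Slc5a3, Trps1 and Nfatc2, against 1.25, 1.06 and 0.54 UMIs per cell under 10%. The mitochondrial mRNA mt-Atp8 was at 108 per 10000 of all UMIs in the mitochondria-raised cells and 11.5 in the cells under 10%, a ratio of 9.35 (9.18 to 9.51), which the rule on the mitochondrial share largely sets. Slc5a3 lies on the same strand as Mrps6, a mitochondrial ribosomal protein gene whose annotated span overlaps it, so part of the reads of one could be counted for the other; Mrps6 itself was at 1.42 in the mitochondria-raised cells and 3.19 in the cells under 10%.

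Not every mitochondria-raised cell showed the lower markers. With each cell thinned to 1000 nuclear-gene UMIs (326 mitochondria-raised cells, 929 cells under 10%), at least 1 UMI of Neat1 was present in 95.1% of mitochondria-raised cells and 33.8% of cells under 10%. For Slc5a3 the shares were 43.6% of mitochondria-raised cells and 6.78% of cells under 10%, for Trps1 42.0% and 7.21%, and for Nfatc2 22.1% and 3.98%. Without thinning, Neat1 was found in 98.2% and 76.2%, Slc5a3 in 74.3% and 39.9%, Trps1 in 79.7% and 44.2%, and Nfatc2 in 51.0% and 17.6%, in the same order of groups. Free RNA, read from barcodes of up to 100 UMIs in the same library, held Neat1 at 22.2, Slc5a3 at 1.46, Trps1 at 0.839 and Nfatc2 at 0.454. The summed level of the mitochondria-raised cells was above free RNA for all 4 genes and that of all cells under 10% was below it. The cells under 10% were not alike in this: the 1123 cells under 5% had a median Neat1 of 1.95, while the 127 cells at 5% to 10% had a median of 38.4, above free RNA.

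Within the mitochondria-raised cells, Neat1 was highest in the shallowest cells, and Slc5a3 was level. In 3 depth groups of 112, 111 and 112 cells (up to 4187 UMIs, then up to 6373, then up to 16398), Neat1 was at 241, 174 and 108. Malat1, another nuclear long non-coding RNA, was at 1157, 1078 and 652 in the same groups, Trps1 at 6.92, 6.70 and 4.18, and Slc5a3 at 6.52, 6.84 and 6.49. Nfatc2 was highest in the middle group, at 7.09, against 3.15 in the shallowest and 3.38 in the deepest cells. Ribosomal protein genes took 4.09%, 3.19% and 3.68% of nuclear-gene UMIs in these groups.

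Along the mitochondrial share, most of the difference in Neat1 lay below the limit of 10%. In the cells at 0 to 2.5%, 2.5 to 5%, 5 to 7.5% and 7.5 to 10%, Neat1 was at 2.86, 9.15, 54.1 and 107. In the 4 bins of the mitochondria-raised cells it was at 137, 161, 133 and 174, and in the barcodes at 20 to 30%, 30 to 50% and over 50% it was at 176, 149 and 46.1. Slc5a3 was at 0.306 in the lowest bin, 7.77 in the highest bin of the mitochondria-raised cells and 3.85 over 50%, so the barcodes over 50%, whose median was 343 genes, had less of both RNAs. Depth moved along the same axis, with median UMIs of 25520 at 0 to 2.5%, 5712 at 7.5 to 10%, and 4648.5 in the highest bin of the mitochondria-raised cells. The 5 genes whose levels over the 11 bins ranked most like Neat1 were Hk2 (hexokinase 2, the first step of glycolysis; Spearman 1), Gabre (a GABA receptor subunit; 0.991), Slc7a1 (a transporter of cationic amino acids; 0.991), Dmtf1 (a transcription factor that acts on the Arf gene; 0.991) and Jmjd1c (a chromatin protein of the histone demethylase family; 0.982). These correlations describe 11 bins of 1 library that differ in depth, and carry no p.

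**Figure D1:**
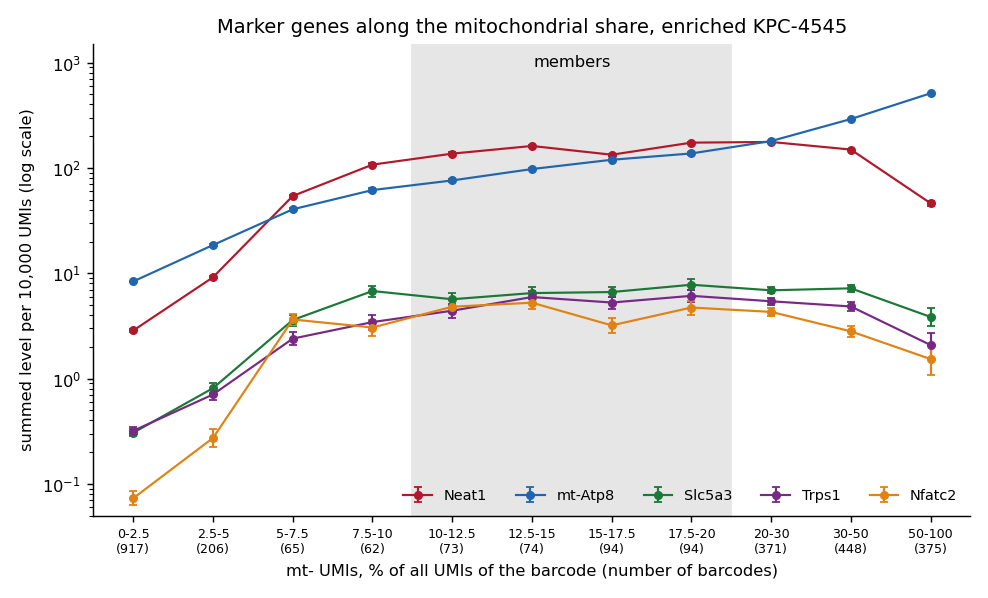
Summed level of the 5 marker genes (y, log scale; per 10000 nuclear-gene UMIs, and for mt-Atp8 per 10000 of all UMIs) in 11 bins of the mitochondrial share (x, percent of UMIs, with the number of barcodes) of the enriched KPC-4545 library; bars are exact 95% counting intervals and the shaded bins are the mitochondria-raised cells (members). Neat1 is at 2.86 in the first bin and 107 in the last bin before the shaded area, and between 133 and 174 inside it.

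Cells just inside and just outside the limits differed less than the groups as a whole. At 10% to 11% mitochondrial UMIs (33 cells) Neat1 was at 99.4 and Slc5a3 at 4.65, and at 9% to 10% (17 cells) they were at 102 and 8.78. At 19% to 20% (41 cells) Neat1 was at 172, and at 20% to 21% (63 cells) at 153. Among cells near the collagen limit, Neat1 was at 170 in the 15 mitochondria-raised cells with 10 to 20 collagen UMIs per 10000 and at 143 in the 21 left out with 20 or more. Neat1 was thus at nearly the same level on both sides of the 10% limit.

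Depth separated the 2 groups, so they were also compared in cells of 2000 to 10000 UMIs, a range chosen after the data had been seen. It held 285 mitochondria-raised cells with a median of 5181 UMIs and 110 cells under 10% with a median of 5183.5 UMIs. Neat1 was at 169 in the mitochondria-raised cells and 114 in the cells under 10% of this depth, a ratio of 1.48 (1.44 to 1.52) instead of 22.5. Slc5a3 was at 6.69 in the mitochondria-raised cells and 4.16 in the cells under 10%, a ratio of 1.61 (1.39 to 1.86). Trps1 had a ratio of 1.49 and Nfatc2 of 1.75, and mt-Atp8 was at 110 in the mitochondria-raised cells and 35.4 in the cells under 10% per 10000 of all UMIs. Of the 27882175 nuclear-gene UMIs of all cells under 10%, 22965047 came from the cells at 0 to 2.5%, whose median was 25520 UMIs.

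The 110 cells of like depth differed among themselves by their mitochondrial share. Neat1 was at 169 in the mitochondria-raised cells, 169 in the 60 cells at 5% to 10% and 42.3 in the 50 cells under 5%. Slc5a3 was at 6.69 in the mitochondria-raised cells, 5.78 at 5% to 10% and 2.05 under 5%. Ribosomal protein genes took 3.46% of nuclear-gene UMIs in the mitochondria-raised cells, 5.22% at 5% to 10% and 16.4% under 5%. S100a6, a calcium-binding protein gene abundant in this tumour line, was at 17.7 in the mitochondria-raised cells, 30.1 at 5% to 10% and 99.6 under 5%. With depth held to 2000 to 5000 UMIs, Neat1 was at 220 in 133 mitochondria-raised cells, 171 in 25 cells at 5% to 10% and 15.1 in 26 cells under 5%; at 5000 to 10000 UMIs it was at 145 in 152 mitochondria-raised cells, 168 in 35 cells and 55.5 in 24 cells; and at 10000 to 20000 UMIs it was at 72.0 in 28 mitochondria-raised cells, 48.8 in 40 cells and 6.93 in 75 cells. In all 3 ranges the cells under 5% had the lowest Neat1 and the highest ribosomal share, and at 5000 to 10000 UMIs the cells at 5% to 10% were above the mitochondria-raised cells in Neat1. No mitochondria-raised cell had 20000 UMIs or more.

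**Figure D2:**
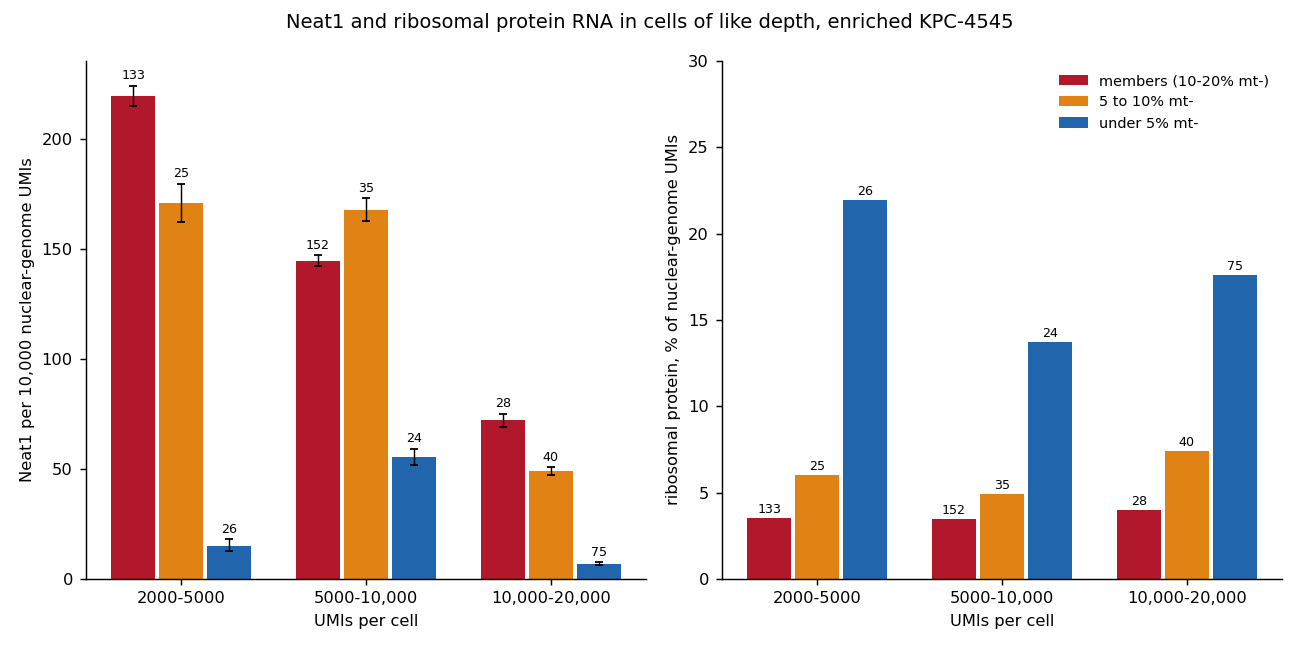
Summed Neat1 level (left, per 10000 nuclear-gene UMIs, with exact 95% counting intervals) and ribosomal protein share (right, percent of nuclear-gene UMIs) in enriched KPC-4545 cells of 3 depth ranges (x, UMIs per cell); red bars are the mitochondria-raised cells (members), orange bars cells with 5% to 10% and blue bars cells with under 5% mitochondrial UMIs, with the number of cells above each bar. In cells of 2000 to 5000 UMIs Neat1 is at 220, 171 and 15.1, and ribosomal protein genes take 3.52%, 6.02% and 21.9%.

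Over all genes, the mitochondria-raised cells differed from the cells under 10% in most of the transcriptome. Of 10232 genes with at least 100 UMIs in both groups together, 4195 (41.0%) were at least 2-fold higher and 2224 (21.7%) at least 2-fold lower, and the median log2 ratio was 0.54. These shares are the background against which each list below is read. A scaling by TMM, which centres the middle genes, lowers every log2 ratio of a nuclear gene by 0.99 and gives 2104 genes higher and 4043 lower, so that 34.2% of the calls are higher instead of 65.4%. In cells of 2000 to 10000 UMIs, where 3590 genes had 100 UMIs, 213 (5.93%) were at least 2-fold higher and 408 (11.4%) at least 2-fold lower. Of 2039 genes that were 2-fold higher against all cells under 10% and measured there, 202 were still 2-fold higher and 1880 were higher at all; of 637 that were 2-fold lower, 392 were still 2-fold lower and 636 were lower.

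RNAs that stay in the nucleus were high. All 8 listed nuclear-retained RNAs with enough UMIs, which include the marker Neat1 itself, were at least 2-fold higher. Their sum, with Neat1 in it, was at 1027 in the mitochondria-raised cells and 72.2 in the cells under 10%, a ratio of 14.2. Malat1, an abundant RNA of nuclear speckles, was at 865 in the mitochondria-raised cells and 64.7 in the cells under 10%. Kcnq1ot1, an imprinted RNA that lies antisense to Kcnq1, was at 7.40 in the mitochondria-raised cells and 0.324 in the cells under 10%, a ratio of 22.8 (20.9 to 24.9). The other 5 had ratios between 3.87 (Pvt1) and 15.8 (Airn, an imprinted RNA antisense to Igf2r). Long non-coding RNAs together took 15.8% of nuclear-gene UMIs in the mitochondria-raised cells and 2.18% in the cells under 10%, and 5.66% and 1.47% without Malat1 and Neat1. At 2000 to 10000 UMIs the sum of the nuclear-retained RNAs had a log2 ratio of 0.69 instead of 3.83.

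Of the 15 genes with the most clearly raised ratios, 3 are annotated as protein-coding. Gm26917, annotated as a long intergenic non-coding RNA, was at 70.6 in the mitochondria-raised cells and 1.61 in the cells under 10%, a ratio of 43.8 (42.3 to 45.3), and its ratio was 2.44 in cells of like depth. Gm14636, a non-coding transcript, was at 11.9 in the mitochondria-raised cells and 0.597 in the cells under 10%. Gm43259, Gm43256 and Gm42702 lie inside introns of Magi3, Gm43465 inside Ptgfrn, Gm16310 inside Mrps6 and Gm17024 inside Ifrd1, each on the strand of its host. These sense-intronic genes had ratios between 25.9 (Gm17024) and 43.4 (Gm43465). Their hosts had ratios of 8.64 (Magi3), 5.40 (Ptgfrn), 3.70 (Ifrd1) and 0.443 (Mrps6), so each intronic gene was higher by more than its host. Whether these reads come from unspliced host RNA cannot be read from gene counts. The other genes of the 15 were Neat1, Kcnq1ot1, Fam71a (40.2), Gm26802 (34.3), 4933433G15Rik (28.3), 1700109H08Rik (27.8) and Lsmem1 (25.6).

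Ribosomal protein mRNAs were low. All 78 listed cytosolic ribosomal protein genes were at least 2-fold lower, and together they took 3.60% of nuclear-gene UMIs in the mitochondria-raised cells and 22.2% in the cells under 10%. Per cell, that was 174 UMIs in a mitochondria-raised cell and 4954 UMIs in a cell under 10%. The quartiles of the single cells were 2.08% and 3.99% in the mitochondria-raised cells and 15.9% and 24.9% in the cells under 10%, and 7 of 335 mitochondria-raised cells reached the lower quartile of the cells under 10%. Free RNA of the library held 16.2%, so the mitochondria-raised cells lay below it. In cells of 2000 to 10000 UMIs the shares were 3.46% in the mitochondria-raised cells and 10.1% in the cells under 10%, and 74 of 78 genes were at least 2-fold lower. Among the 15 genes most clearly lower, 9 were ribosomal protein genes, with Rplp0 at 17.1 in the mitochondria-raised cells and 133 in the cells under 10% and Rps4x at 4.94 and 46.8. The others were S100a6, the glutathione transferase genes Gstp1 (ratio 0.110) and Mgst3 (0.0874), the tubulin-binding Stmn2 (0.0906), the outer mitochondrial membrane protein gene Tspo (0.119) and Ifitm6, an interferon-induced membrane protein gene with 0 UMIs in the mitochondria-raised cells.

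The parts of the respiratory chain encoded in the 2 genomes went opposite ways. All 13 mitochondrial mRNAs were higher, which the rule requires of their sum, at 1505 per 10000 of all UMIs in the mitochondria-raised cells and 195 in the cells under 10%. Per cell there were 856 UMIs of these mRNAs in the mitochondria-raised cells and 444 in the cells under 10%. Of 36 nuclear genes for respiratory chain and ATP synthase subunits, 35 were at least 2-fold lower and 0 higher, and their sum was at 31.7 in the mitochondria-raised cells and 170 in the cells under 10%, a ratio of 0.187. The exception was Sdha, the catalytic subunit of complex II, with a ratio of 0.818 (0.635 to 1.04), and Cox8a, a subunit of complex IV, was at 2.85 in the mitochondria-raised cells and 14.2 in the cells under 10%. In cells of like depth 23 of 28 were still 2-fold lower. Of 21 genes of mitochondrial biogenesis, import and turnover, 6 were at least 2-fold higher and 5 lower, against 41.0% and 21.7% of all genes. Their sum had a ratio of 0.742. The higher genes included Mfn2 (4.01), Mfn1 (3.09) and Opa1 (2.75), which act in mitochondrial fusion, and Dnm1l (3.28), which acts in fission, while Tomm20, an import receptor, had a ratio of 0.298. In cells of like depth 0 of 11 of these genes were 2-fold higher and 2 lower.

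Within the mitochondrial mRNAs, the share of mt-Atp8 differed by library. It took 7.15% (7.05% to 7.24%) of the mitochondrial UMIs in the mitochondria-raised cells, 5.90% in the cells under 10% and 7.61% in the barcodes over 20%. In cells with 10% to 20% it was 1.81% in the whole KPC-4545 library, 1.24% in the enriched KPC-3403 library and 0.267% in the whole KPC-3403 library. In cells under 10% of those libraries it was 1.50%, 0.966% and 0.296%. The difference between libraries was thus larger than that between cells of 1 library, while the overlapping gene mt-Atp6 took 17.2% in the mitochondria-raised cells and 22.0%, 22.4% and 21.3% in the cells of 10% to 20% of the other libraries, in the same order. In free RNA mt-Atp8 took 5.75% in the enriched KPC-4545 library, 4.31% in the whole KPC-4545 library, 2.70% in the enriched KPC-3403 library and 2.11% in the whole KPC-3403 library, so cells and free RNA of a library differed too.

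**Figure D3:**
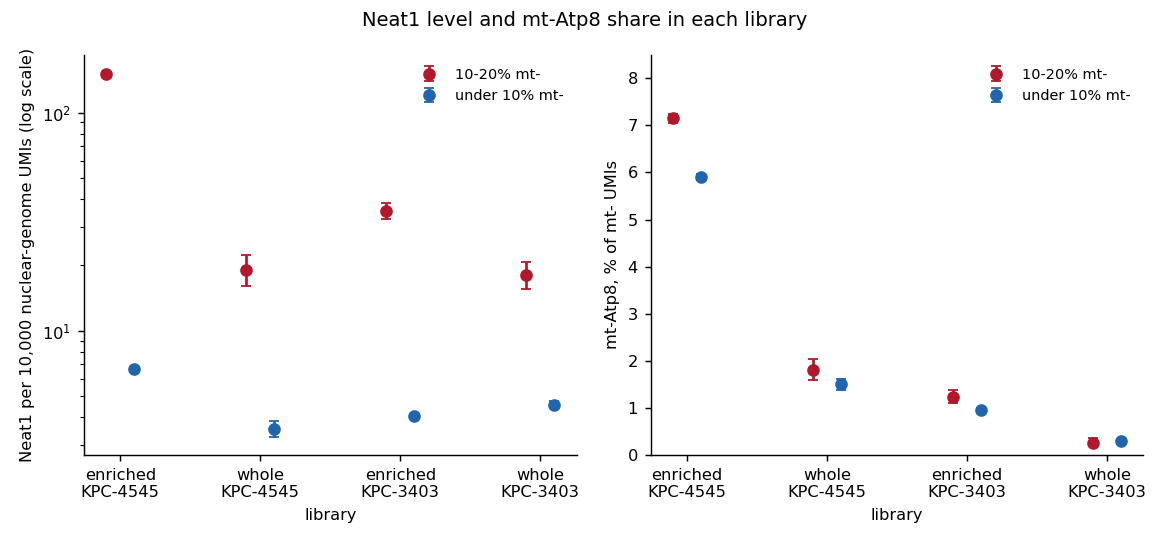
Neat1 level (left, per 10000 nuclear-gene UMIs, log scale) and mt-Atp8 share (right, percent of mitochondrial UMIs) in cells with 10% to 20% (red) and under 10% (blue) mitochondrial UMIs of each library (x); bars are exact 95% counting intervals. Neat1 is higher in the red points of all 4 libraries, from 150 against 6.67 in enriched KPC-4545 to 18.0 against 4.57 in whole KPC-3403, and the mt-Atp8 share differs more between libraries than between the 2 kinds of cells.

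The ratio of a gene followed the length of its mature RNA. Over 9919 protein-coding genes with UMIs in both groups, the Spearman correlation of the log2 ratio with the exonic length was 0.71, and genes are not independent replicates. The median log2 ratio was -2.26 for genes of up to 1 kb of exons, -1.60 for 1 to 2 kb, -0.78 for 2 to 3 kb, 0.23 for 3 to 5 kb, 1.29 for 5 to 8 kb and 2.16 for longer genes. The span of the gene in the genome (0.56) and the number of exons (0.52) correlated less, and the level of the gene hardly at all (0.02). In cells of 2000 to 10000 UMIs the correlation was 0.58 over 3526 genes, with medians of -1.47 for the shortest genes and 0.49 for the longest. Exonic length moved with the ratio in all 3 comparisons drawn, and its part in the list values given below was not tested.

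**Figure D4:**
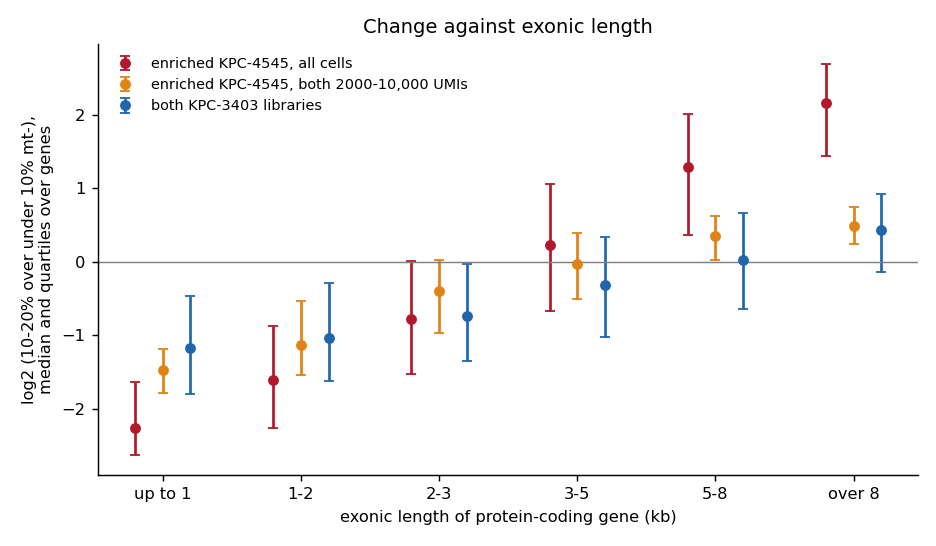
Median and quartiles over protein-coding genes of the log2 ratio of cells with 10% to 20% over cells with under 10% mitochondrial UMIs (y) in 6 classes of exonic length (x, kb), for all enriched KPC-4545 cells (red), for those of 2000 to 10000 UMIs (orange) and for the 2 KPC-3403 libraries (blue, edgeR). The medians of all 3 comparisons go up with length, from -2.26, -1.47 and -1.17 to 2.16, 0.49 and 0.43.

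Of the stress lists, immediate early genes were mixed. Of 22 genes 9 were at least 2-fold higher, about the same share as the 41.0% of all genes. At least 2-fold lower were 2, a smaller share than the 21.7% of all genes. The transcription factor genes Fosb (ratio 8.97), Egr3 (13.5), Fosl2 (4.58), Klf6 (2.72) and Jun (2.03) were higher, Fos (34.9 in the mitochondria-raised cells and 35.0 in the cells under 10%) was level, and Ier3 (0.429) and Klf2 (0.406) were lower. The summed list had a ratio of 1.24, which was below 1 under TMM scaling (log2 -0.68) and in cells of like depth, where 5 of 21 genes were 2-fold lower and 0 higher. Of 14 heat shock genes 4 were at least 2-fold higher and 2 lower, a smaller share in each direction than over all genes. Hsph1, which helps the chaperone Hsp70, was at 16.5 in the mitochondria-raised cells and 2.45 in the cells under 10%. The constitutive chaperone gene Hspa8 was at 20.5 in the mitochondria-raised cells and 49.1 in the cells under 10%. In cells of like depth 0 of 14 passed the 2-fold limit in either direction. Of 17 genes of the integrated stress and unfolded protein responses, 2 were higher and 2 lower, a smaller share in each direction than over all genes.

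Genes of cell death and the p53 response were mixed. Of 18 apoptosis regulators 5 were at least 2-fold higher and 4 at least 2-fold lower, against 41.0% and 21.7% of all genes. Among the higher were Bcl2l11, which encodes the death-promoting protein Bim, at 3.91 in the mitochondria-raised cells and 0.415 in the cells under 10%, and Apaf1, the core of the apoptosome, with a ratio of 8.08. Cycs, which encodes cytochrome c, was at 0.501 in the mitochondria-raised cells and 2.89 in the cells under 10%, and Bax, which opens the outer mitochondrial membrane, had a ratio of 0.299. Of 13 p53 targets 8 were higher, such as Mdm2 (4.23), which encodes the ligase that degrades p53, and 4 lower, such as Ccng1 (0.305), for cyclin G1. The sum of the p53 targets had a log2 ratio of 1.00, which fell to 0.01 under TMM scaling, and the sum of the apoptosis list changed its sign there. In cells of like depth 0 of 8 apoptosis genes were 2-fold higher and 1 lower, and of 5 p53 targets 1 was higher and 0 lower. The sums had ratios of 1.16 (1.08 to 1.26) for apoptosis and 1.06 (0.984 to 1.14) for p53 targets at that depth.

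Osmotic and NFAT genes were read because Slc5a3 and Nfatc2 are markers of these cells. Over all genes, 41.0% were at least 2-fold higher and 21.7% at least 2-fold lower. Of 8 measured genes of osmotic stress and osmolyte transport, 4 were at least 2-fold higher: Slc5a3, Nfat5 (8.13 in the mitochondria-raised cells and 0.787 in the cells under 10%), which encodes the transcription factor of the osmotic response, the amino acid transporter gene Slc38a2 (ratio 4.37) and the taurine transporter gene Slc6a6 (2.12). Akr1b3, for the aldose reductase that makes sorbitol, was at 0.884 in the mitochondria-raised cells, against a higher level in the cells under 10% (ratio 0.591), but its ratio was 1.56 (1.02 to 2.47) in cells of like depth. Sgk1, a kinase gene of the salt and stress response, had a ratio of 0.526. The water channel gene Aqp5 was at 1.58 in the mitochondria-raised cells and 6.88 in the cells under 10%. Of 11 NFAT and calcineurin genes 7 were higher, with ratios of 11.2 for Nfatc1 and 4.40 for Nfatc3. The sums of both lists were above 1, at 1.86 and 1.31, and both changed sign under TMM scaling. In cells of like depth 0 of 7 osmotic genes and 1 of 7 NFAT genes were 2-fold higher, and Nfat5 had a ratio of 1.53.

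Genes for the proteins that build paraspeckles with Neat1 had smaller ratios than Neat1. Of 10 genes 6 were at least 2-fold higher and 2 lower, against 41.0% and 21.7% of all genes. Matr3 had a ratio of 6.44, Sfpq 2.45, Pspc1 2.34, Nono 0.823 and Nudt21, which directs the 3′ end processing of Neat1, 0.242. The sum of the list was at 23.1 in the mitochondria-raised cells and 14.8 in the cells under 10%, a ratio of 1.57 that changed direction under TMM scaling (log2 -0.34). In cells of like depth 1 of 8 measured genes was 2-fold higher and 0 lower, and the sum had a ratio of 1.27 (1.18 to 1.36).

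The genes that mark the tumour-like cells of KPC-4545 were low in the mitochondria-raised cells. At least 1 UMI of the keratin genes Krt8 or Krt18, of simple epithelia, was found in 198 of 335 mitochondria-raised cells and 1034 of 1250 cells under 10%. Of 15 measured genes that mark the tumour-like cells of this line, 11 were at least 2-fold lower and 2 higher. In cells of like depth 4 of 12 were at least 2-fold lower and 1 higher, and their sum had a ratio of 0.464 (0.451 to 0.477). At that depth 0 of 5 epithelial or ductal markers passed the 2-fold limit in either direction, and the sum of that list had a ratio of 0.808 (0.745 to 0.878). Krt18 was at 3.84 in the mitochondria-raised cells and 11.5 in the cells under 10%, Cdkn2a, a cell cycle inhibitor gene, at 3.88 and 13.7, S100a6 at 20.0 and 146, and Vim, for the mesenchymal filament vimentin, at 28.6 and 64.9. Free RNA of the library held Krt18 at 6.60, Krt8 at 4.76, Krt7 at 6.27, Aqp5 at 3.16, Vim at 37.9 and S100a6 at 69.1, all above the level in the mitochondria-raised cells. Neutrophil markers were at 0.0185 in the mitochondria-raised cells and 6.63 in free RNA. Acinar or islet markers were at 0.130 and 7.39, while the mesothelial and the Schwann or neural sums lay above free RNA. How much of the level of the tumour-like genes is background was not tested. The cadherin genes Cdh1 (ratio 2.64) and Cdh2 (2.39) were higher. Thinned to 1000 nuclear-gene UMIs, Krt18 was present in 21.5% of mitochondria-raised cells and 50.6% of cells under 10%, and Vim in 88.0% and 96.3%. Epcam, whose protein the sort selected against, had 0 UMIs in the mitochondria-raised cells, which allows up to 1.13% of thinned cells with a UMI, and 0.646% of cells under 10% had one. Cldn3, Cldn7, Tff1, Tff2 and Esrp1 also had 0 UMIs. In cells of 2000 to 10000 UMIs Krt18 was at 3.78 in the mitochondria-raised cells, 2.48 at 5% to 10% and 7.18 under 5%.

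Markers of other cell types were scarce. The 10 fibroblast markers summed to 3.20 in the mitochondria-raised cells and 1.41 in the cells under 10%, 2 of them with 0 UMIs in the mitochondria-raised cells, and the collagen limit caps that sum. Of 5 measured fibroblast genes 4 were at least 2-fold higher, among them the collagen gene Col1a2 (ratio 8.19), and Dcn was lower (0.456); free RNA held the fibroblast list at 23.6. The mesothelial sum was 6.08 in the mitochondria-raised cells and 6.72 in the cells under 10%, nearly all of it Msln (5.11 and 4.81), with 5 of 7 genes at 0 in the mitochondria-raised cells. The 8 pericyte or smooth muscle markers summed to 0.550 in the mitochondria-raised cells and 0.206 in the cells under 10%, the 8 endothelial markers to 0.142 and 0.278, and the 9 macrophage or monocyte markers to 0.0989 and 0.0707. Neutrophil markers had 3 UMIs in all mitochondria-raised cells, T or NK markers 8, B or plasma markers 4, and erythroid markers 11. Acinar or islet markers had 21 UMIs, a sum of 0.130 in the mitochondria-raised cells and 0.0287 in the cells under 10% (ratio 4.52, 2.66 to 7.39), below the 7.39 of free RNA. Schwann or neural markers had 14 UMIs, a sum of 0.0865 in the mitochondria-raised cells and 0.0179 in the cells under 10% (ratio 4.82, 2.46 to 8.87), against 0.0275 from 2 UMIs in free RNA. Msln, a gene of mesothelium that pancreatic tumours also express, was above its free RNA level of 2.34. Against all cells under 10%, most measured markers of tumour-like cells were lower, and UMIs of markers of other cell types were few. In cells of like depth 4 of 12 tumour-like genes were at least 2-fold lower and 1 higher. These cells are therefore called by their mitochondrial share, and their cell type was not tested.

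Growth, metabolism and mesenchymal genes were also read, against the 41.0% of all genes at least 2-fold higher and 21.7% at least 2-fold lower. Of 20 proliferation genes, 3 were at least 2-fold higher, namely Mki67 (5.59 in the mitochondria-raised cells and 0.772 in the cells under 10%), Top2a (ratio 5.35) and Cenpf (5.43), all genes of dividing cells. The 7 lower genes include Birc5 (0.290), Ube2c (0.235), Ccnb2 (0.197), Stmn1 (0.204) and Tubb5 (0.244), so the list gave no single direction. Of 14 hypoxia and glycolysis genes, Hk2 (6.89), Vegfa (6.19) and the pyruvate dehydrogenase kinase gene Pdk1 (2.47) were higher, while 5 were lower. The lower genes included the glycolytic enzyme genes Gapdh (3.28 in the mitochondria-raised cells and 15.9 in the cells under 10%), Pgk1 (0.214) and Ldha (0.237). In cells of like depth 0 of 9 measured hypoxia and glycolysis genes were 2-fold higher and 4 lower. Of 9 transcription factor genes of the epithelial to mesenchymal transition, 5 were higher, namely the marker Trps1, Zeb1 (ratio 6.33), Zeb2 (5.86), Tcf4 (5.23) and Prrx1 (3.03). In cells of like depth 0 of 5 measured were 2-fold higher, with ratios of 1.66 for Zeb1, 1.53 for Zeb2 and 1.02 for Tcf4. Snai1 was at 0.340 in the mitochondria-raised cells and 0.398 in the cells under 10%. In cells of like depth 3 of 11 proliferation genes were 2-fold higher and 3 lower, and their sum had a ratio of 0.963 (0.899 to 1.03). Cenpf was at 2.59 in the mitochondria-raised cells and 0.677 in the cells under 10%, while Ube2c had a ratio of 0.323. Cep55 (ratio 5.58), Knl1 (4.63) and Aspm (4.22), genes of the kinetochore, the spindle and the final cut between daughter cells, were picked for their high ratios at that depth.

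**Figure D5:**
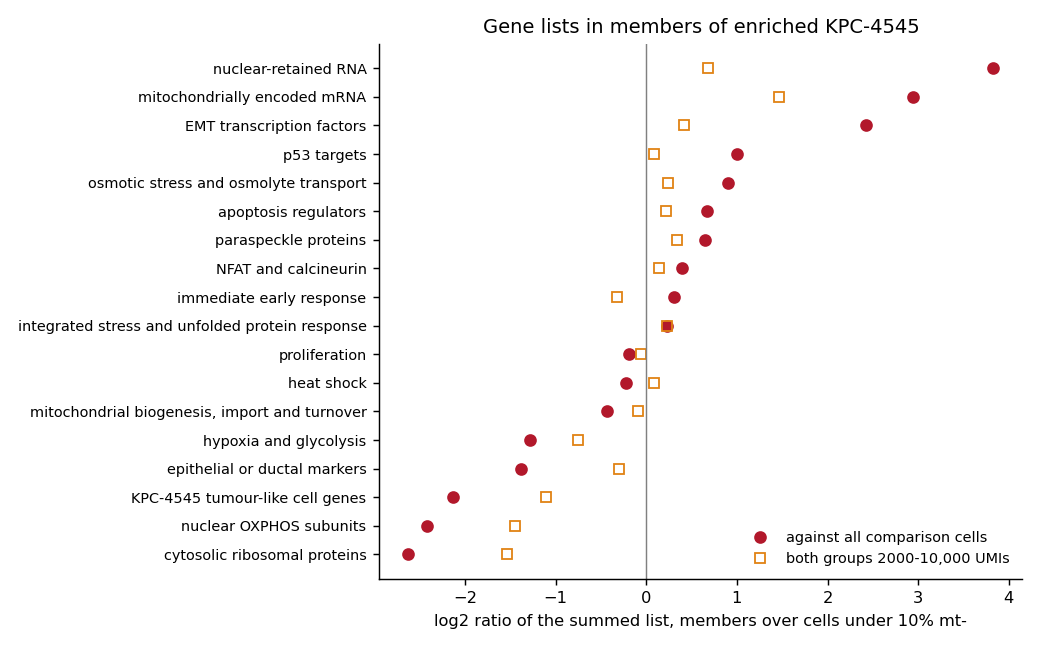
Log2 ratio of the summed level of 18 gene lists (y), mitochondria-raised cells (members) over cells under 10% mitochondrial UMIs (x), in enriched KPC-4545; filled circles use all cells under 10% and open squares use cells of 2000 to 10000 UMIs in both groups. Nuclear-retained RNAs are at 3.83 and 0.69, and cytosolic ribosomal proteins at -2.63 and -1.54; the squares lie nearer to 0 for most lists.

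The same contrast was tested in libraries that had not been used to choose the markers. Cells with 10% to 20% mitochondrial UMIs, chosen by the same limits, numbered 67 in the enriched KPC-3403 library, 37 in the whole KPC-3403 library and 13 in the whole KPC-4545 library, against 969, 687 and 221 cells under 10%. Depth differed here too. In the enriched KPC-3403 library the median was 2272 UMIs in the cells of 10% to 20% and 16040 UMIs in the cells under 10%. In the whole KPC-4545 library the medians were 6979 and 3306 UMIs. The contrast was not repeated in cells of like depth of these libraries. Neat1 was at 35.3 in the cells of 10% to 20% and 4.07 in the cells under 10% of the enriched KPC-3403 library, at 18.0 and 4.57 in the whole KPC-3403 library, and at 18.9 and 3.53 in the whole KPC-4545 library. Its ratio was 8.68 (7.94 to 9.48), 3.93 (3.37 to 4.55) and 5.34 (4.44 to 6.41) in those libraries, below the 22.5 of the enriched KPC-4545 library, and the difference between libraries was not tested. The medians over cells were lower than these sums: the median Neat1 of the cells of 10% to 20% was 8.42 in the enriched KPC-3403 library, 0 in the whole KPC-3403 library (highest 277) and 1.75 in the whole KPC-4545 library (highest 78.0), against medians of 2.63, 0 and 0 in the cells under 10%.

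The sums of the 2 KPC-3403 libraries, which had at least 20 cells of both kinds, were fitted with edgeR's quasi-likelihood test, with the library as a block and 1 residual degree of freedom. No source used here says that these libraries come from separate animals. The p-values speak only of how far the contrast differs between 2 libraries, set against a spread pooled over genes. That spread may be technical. Of 11336 genes, 151 (1.33%) were higher and 711 (6.27%) lower in the cells of 10% to 20% at a Benjamini-Hochberg adjusted p under 0.05. The higher genes include all 13 mitochondrial mRNAs, which the choice of cells by mitochondrial share largely sets. A fit without the mt- genes gave 147 higher and 500 lower of 11310 genes. Neat1 was higher by 1.99 on the log2 scale (SE 0.40, adjusted p = 0.000121, higher in 2 of 2 libraries) and Malat1 by 2.31 (SE 0.46, adjusted p = 0.000119). Over 7 other settings of the fit the adjusted p of Neat1 lay between 1.14e-15 and 0.228, and the fit without the library block (0.228) was the one in which it did not pass. Kcnq1ot1 (log2 2.26, adjusted p = 0.000205) and Gm26917 (log2 3.33, adjusted p = 1.10e-07) also passed. Slc5a3 (log2 0.71, adjusted p = 0.696), Trps1 (log2 0.33, adjusted p = 0.935) and Nfatc2 (log2 0.95, adjusted p = 0.764) did not pass. They had 7, 5 and 3 UMIs in the cells of 10% to 20% of the enriched library, and the SEs of these log2 changes were 0.78 for Slc5a3, 1.07 for Trps1 and 1.23 for Nfatc2.

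Ribosomal protein genes fell in the KPC-3403 libraries too, with 53 of 78 lower and 0 higher. Of the nuclear respiratory chain genes 16 of 36 were lower, of the nuclear-retained RNAs 5 of 12 were higher, and of the immediate early genes 7 of 22 were lower and 0 higher. Vim was lower by log2 -2.11 (adjusted p = 9.60e-05), while Nfat5 (log2 0.83, adjusted p = 0.255) and Zeb1 (log2 1.13, adjusted p = 0.363) did not pass. The log2 change correlated with exonic length at 0.41 over 10963 protein-coding genes. Of 2140 genes at least 2-fold lower in the mitochondria-raised cells and tested here, 533 (24.9%) were lower, which is 80.9% of the 659 lower genes measured in both. Of 3979 genes at least 2-fold higher there, 60 (1.51%) were higher, which is 77.9% of the 77 higher genes measured in both. Over all 11336 genes tested the share was 1.33%, but of those 151 higher genes only 77 were measured in both, so the sets are unlike. Within the enriched KPC-4545 library, 41.0% of all measured genes were at least 2-fold higher and 21.7% at least 2-fold lower.

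The cell makeup moved with this contrast in the KPC-3403 libraries. Endothelial markers summed to 19.1 in the cells of 10% to 20% and 1.19 in the cells under 10% of the whole KPC-3403 library, erythroid markers to 22.7 and 652, and neutrophil markers to 0.0936 and 25.6. In the enriched KPC-3403 library the endothelial sums were 1.83 in the cells of 10% to 20% and 1.18 in the cells under 10%, and the neutrophil sums 0 and 3.48. The 5 genes with the largest gain were Mmrn2 (log2 5.22), Vwf (4.93), Cd93 (4.59), Mcam (4.32) and Apob (4.21), of which Mmrn2, Vwf and Cd93 are known from endothelial cells, and those with the largest drop included the neutrophil genes S100a8 (log2 -14.5), Ngp and Camp. With only cells that held a UMI of Krt8 or Krt18, Neat1 was higher by 2.19 (SE 0.25, adjusted p = 1.14e-15), with 114 genes higher and 636 lower of 10500, while Gm26917 (log2 3.05, SE 1.72, adjusted p = 0.691) and Kcnq1ot1 (log2 1.40, SE 0.54, adjusted p = 0.0995) did not pass in edgeR. The part of the cell makeup in the other results of these libraries was not tested.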

How the data were processed

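The authors deposited raw UMI counts for every gene in every droplet barcode, before any cell calling or normalization. The submitters' processing notes name mm10 and Cell Ranger 6.1.1; whether counting used the strand is not given in the sources used here. The cells, markers and gene lists were chosen with earlier results of these data known. UMIs were summed over cells and divided by the sum over nuclear genes (mitochondrial genes by all UMIs), per 10000. Ratios have exact conditional binomial intervals at 95%, counts exact Poisson and shares exact Clopper-Pearson intervals. PCR and capture make UMIs less than fully independent. Named genes are the 5 markers, the 15 genes per direction with the interval farthest from 1 among genes with 100 UMIs and a 2-fold ratio, and up to 4 members per list with the most UMIs; other list members and the genes of like-depth cells were named after their values were seen. The 5 genes most like Neat1 over bins and up to 5 genes per direction of the edgeR test were also named by rule. Sums of cells (at least 20) were tested with edgeR 4.0.16 in R 4.3.3 (TMM, filterByExpr, robust glmQLFit), with DESeq2 1.42.0 as an alternative; scripts were tested on simulated data. The block pairs 2 sums of the same library. Likely doublets were scored with Scrublet in scanpy 1.11.5 (Python 3.11.15); leaving out the 68 highest scores, 10 of them mitochondria-raised cells, gave 4175 genes higher and 2278 lower. Depth per library is given above. Alternatives were other scalings, limits, filters, thinning, depth ranges and doublet removal.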

Additional observations from a re-analysis of the deposited data

Results flagged for a closer look

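Only the named genes with enough UMIs in every other library were searched, and 3 were flagged. Their ratio of cells with 10% to 20% over cells with under 10% mitochondrial UMIs was at least 2-fold lower in the enriched KPC-4545 library alone. In the other libraries it was level or above 1, and the difference between libraries was not tested. Cox6a1, for a subunit of complex IV, had a ratio of 0.208 in the enriched KPC-4545 library (1.93 in the mitochondria-raised cells and 9.29 in the cells under 10%), against 2.01 in the whole KPC-4545 library, and 1.06 (enriched) and 1.00 (whole) in the KPC-3403 libraries. It was thus level in the KPC-3403 libraries, where edgeR gave it a log2 change of -0.52 (adjusted p = 0.485). Plvap, an endothelial gene, had a ratio of 0.216 (7 UMIs in the mitochondria-raised cells and 558 in the cells under 10%), against 3.66, 2.34 and 118 in the same order of libraries. Egfl7, also endothelial, had a ratio of 0.108 (1 and 159 UMIs), against 2.93, 7.45 and 12.2. In cells of like depth Egfl7 had 1 UMI in the mitochondria-raised cells and 0 in the cells under 10%, so its lower ratio was not seen there.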

How the results depend on the processing

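Of 1644 log2 ratios of named genes recomputed under alternatives, 60 (in 30 genes) turned their sign: 48 of genes under 2-fold in either direction, 9 of them at like depth, Akr1b3 (0.64) included, and 12 of genes at least 2-fold higher or lower, given below as reversed. TMM scaling gave 2104 genes higher and 4043 lower within the enriched KPC-4545 library; thinning to 1000 UMIs gave 553 and 863, no filter 6880 higher, and cells of 2000 to 10000 UMIs, chosen after seeing the data, 213 and 408; fewer genes are tested after thinning and at like depth. At like depth the log2 ratios of Jun (-0.026), Btg2 (-0.034), Col3a1 (-0.33), Pdgfrb (-0.38), Notch3 (-0.16), Flt1 (-0.16), Cxcr2 (-2.16), Csf3r (-2.16) and the pericyte list (-0.38) reversed; the mean over cells reversed Flt1 (-0.996), Cxcr2 (-0.20) and Ctrb1 (-0.73), a higher mitochondrial limit Ctrb1 (-0.19), and thinning the Schwann list (-0.29). Most of these rest on few UMIs, and the cause was not tested. With 1000 UMIs and 500 genes as limits, medians differed by -23419 UMIs and -3110.5 genes, and thinning to 2000 UMIs turned the difference in genes to 1. Neat1 in the highest bin of the mitochondria-raised cells over that at 0 to 2.5% was 60.7, and 49.9 per all UMIs.

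In the KPC-3403 libraries, RLE factors gave 436 genes lower, no filter 94 higher, DESeq2 46 higher and 307 lower, and 3 libraries with at least 10 cells 254 higher. Without the block pairing the sums of a library, edgeR called 0 higher and 0 lower, with 1786 at an unadjusted p under 0.05, and DESeq2 with the block 46 and 307. With cells holding a keratin UMI, Hspd1 reversed (log2 -1.16). Leaving out 1 of the 2 libraries leaves no residual degree of freedom, so no such fit was made. Over the settings of this fit the lowest adjusted p was 0.242 for Slc5a3, 0.633 for Trps1 and 0.613 for Nfatc2.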
